A study of Mus musculus with 6 samples.

Results

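The 34 genes described here make cholesterol and fatty acids or govern that work. They were taken as a named list, and a gene was measured where a probe set of the array is annotated with exactly that symbol. All 34 were measured, of 18193 genes with such a probe set, and the probe set with the highest mean over the 6 arrays, called the brightest, stands for each gene. Sterol enzymes make up 14 of them, fatty acid enzymes 13, regulators and carriers of the SREBP and cholesterol system 5, and lipogenic regulators 2. RNA of mammary epithelial organoids, the pieces of duct and alveolus left after digestion of the gland, was hybridised to 6 Affymetrix arrays, 1 per mouse. WT1, WT2 and WT3 came from mice labelled BK5-cre -; WWOX flox/flox, and KO5, KO6 and KO7 from mice labelled BK5-cre +; WWOX flox/flox. All 6 mice were 8 weeks old, of a mixed 129/J; C57BL/6 background, and carried the floxed Wwox allele. BK5-Cre places the recombinase under the bovine keratin 5 promoter, which is active in basal epithelial cells. The study describes this promoter as active already before birth, in precursors of the epithelium. It found Wwox staining largely lost from the mammary epithelium of BK5 KO mice. No array held RNA of a mouse with Cre and intact Wwox, so an effect of Cre and loss of Wwox cannot be told apart.

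Cells build cholesterol from acetyl-CoA through mevalonate, isoprenoid diphosphates, squalene and lanosterol, and they build fatty acids from the same acetyl-CoA through malonyl-CoA. Transcription of both routes is driven by the SREBP factors, which are held in the endoplasmic reticulum by Scap and Insig proteins while sterols are plentiful and are carried to the Golgi and cut free when sterols run low. Srebf2 encodes the factor that mainly serves cholesterol synthesis, and Srebf1 the one that mainly serves fatty acid synthesis. In the mammary gland the fatty acid route is best known for milk fat in lactation, and the fat pad around the epithelium is itself a lipogenic tissue.

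Values are the log2 expression values that the authors made with RMA, and every change is KO minus WT on that scale, from limma fitted to all 45037 probe sets other than the Affymetrix controls. A call needed an unadjusted p under 0.01 and at least a 2-fold change, and adjusted p-values follow Benjamini and Hochberg over the whole of the tested table. Calls went to 1.69% of all probe sets with KO higher and 0.3% with KO lower. The brightest Wwox probe set lay between 7.63 and 7.77 in WT and between 5.87 and 6.23 in KO (log2 change -1.69, limma adjusted p = 0.0228). The luminal keratin and related markers summed to 16.26 to 16.55 (log2 of the summed levels) over the 6 arrays and the basal markers to 14.32 to 14.69. Most stromal markers were higher in KO. The 9 fibroblast markers summed to 14.82 to 14.98 in WT and 15.10 to 15.64 in KO, with 1 called higher. Of these 9, 8 were higher and Pdgfra lower. The groups did not overlap for 4, Col1a1, Col1a2, Col3a1 and Fbln1. Over the 9 the median deviation from each gene's mean was -0.44, -0.32 and 0.09 in WT and 0.39, 0.55 and -0.32 in KO. The 8 endothelial markers, all higher, summed to 12.21 to 12.58 in WT and 12.86 to 13.26 in KO, with 2 called higher. The part of these stromal cells in the values of the synthesis genes was not tested. RNA quality was not the same in both groups. The log2 signal at the 3' end of Gapdh and β-actin less that at the 5' end, a measure of how far signal is lost along the transcript and called the 3' minus 5' difference, averaged 0.96 on WT1, 2.13 on WT2 and 1.80 on WT3, against 0.54 to 0.60 on the KO arrays. In these bulk samples, fewer cells of a type and less RNA per cell cannot be told apart.

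Promoter windows are shown for the genes on which the text turns, from 250 bases before to 50 after the transcription start (RefSeq, GRCm38.p6). Of the 34 genes, 27 had a window in the table used, 35 windows in all. Both strands were searched for the sterol regulatory element core TCACNCCA, the site of SREBP in the classical sterol-responsive promoters, for the NF-Y box CCAAT, read as ATTGG on the other strand, and for the E-box CACGTG. Srebf2 and Hmgcs1 are printed because they alone among the 27 genes held the element core in these windows, and Idi1 and Insig1 because WT1 and KO7 were the lowest arrays of their groups for both, a choice made after their values were seen. Capitals mark the matches.

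Srebf2, chr15:82147019-82147318, plus strand: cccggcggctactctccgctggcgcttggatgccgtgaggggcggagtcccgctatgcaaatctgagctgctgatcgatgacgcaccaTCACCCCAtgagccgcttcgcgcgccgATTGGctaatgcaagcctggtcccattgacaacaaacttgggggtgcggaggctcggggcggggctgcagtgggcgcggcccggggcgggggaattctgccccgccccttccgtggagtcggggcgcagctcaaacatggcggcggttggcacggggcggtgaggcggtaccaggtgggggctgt
Hmgcs1, chr13:119690101-119690400, plus strand: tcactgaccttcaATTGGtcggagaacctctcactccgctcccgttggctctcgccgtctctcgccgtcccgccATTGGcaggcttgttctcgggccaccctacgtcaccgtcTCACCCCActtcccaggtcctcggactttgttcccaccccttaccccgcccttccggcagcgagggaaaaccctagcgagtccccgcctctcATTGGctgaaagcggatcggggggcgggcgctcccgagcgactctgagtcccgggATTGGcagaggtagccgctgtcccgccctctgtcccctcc
Idi1, chr13:8885356-8885655, plus strand: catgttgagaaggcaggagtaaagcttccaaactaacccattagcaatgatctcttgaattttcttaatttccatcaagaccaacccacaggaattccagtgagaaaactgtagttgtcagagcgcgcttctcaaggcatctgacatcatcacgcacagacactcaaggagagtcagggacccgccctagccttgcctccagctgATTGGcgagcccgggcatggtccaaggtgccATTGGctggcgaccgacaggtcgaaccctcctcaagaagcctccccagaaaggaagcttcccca
Insig1, chr5:28071162-28071461, plus strand: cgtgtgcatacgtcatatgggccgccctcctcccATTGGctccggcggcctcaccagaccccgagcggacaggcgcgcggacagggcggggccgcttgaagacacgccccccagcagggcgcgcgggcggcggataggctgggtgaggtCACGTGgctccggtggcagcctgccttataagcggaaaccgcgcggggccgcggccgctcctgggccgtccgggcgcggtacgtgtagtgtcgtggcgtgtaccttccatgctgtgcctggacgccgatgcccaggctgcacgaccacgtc

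The element core began 162 bases before the start of Srebf2 and 137 before that of Hmgcs1, and in Srebf2 an ATTGG box followed it, 135 bases before the start. Hmgcs1 carried 4 ATTGG boxes and Idi1 2, with a box beginning 45 bases before the start in each. Insig1 carried an ATTGG box 216 bases and an E-box 101 bases before the start. No match overlapped another. Over the windows of the listed genes, the element core was in 5.71%, against 4.36% of all 32851 windows, the NF-Y box in 65.7% against 37.4%, and the E-box in 17.1% against 7.15%. These are matches of letters, and no factor binding was measured.

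None of the 34 genes was called in either direction on its brightest probe set, where 0.978% of all genes were, 0.517% higher and 0.462% lower. Of the 34, 13 were higher and 21 lower in KO, where 61.2% of all genes were lower, and the median log2 change was -0.05, beside -0.06 over all 18193 genes. Changes ran from -0.47 for Cyp51 to 0.85 for Srebf2, and their median size without sign was 0.20 against 0.18 for all genes. An unadjusted p under 0.05 was reached by 2 genes that were higher, Srebf2 and Scap, where 6.17% of all genes did so, and by 2 that were lower, Stard4 and Fads1, where 13% of all genes did so. The smallest adjusted p was 0.0916, for Srebf2. The groups did not overlap for Mvk, Srebf2 and Acacb, with KO higher, and for Mvd, Nsdhl, Stard4 and Acaca, with KO lower, against 7.2% and 16.1% of all genes. For 29 of the 34 genes, 85.3%, the 95% interval of the change lay within 2-fold in both directions, as it did for 87.6% of all genes. The exceptions were Ebp, Srebf2, Scap, Fads2 and Thrsp.

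**Figure D1:**
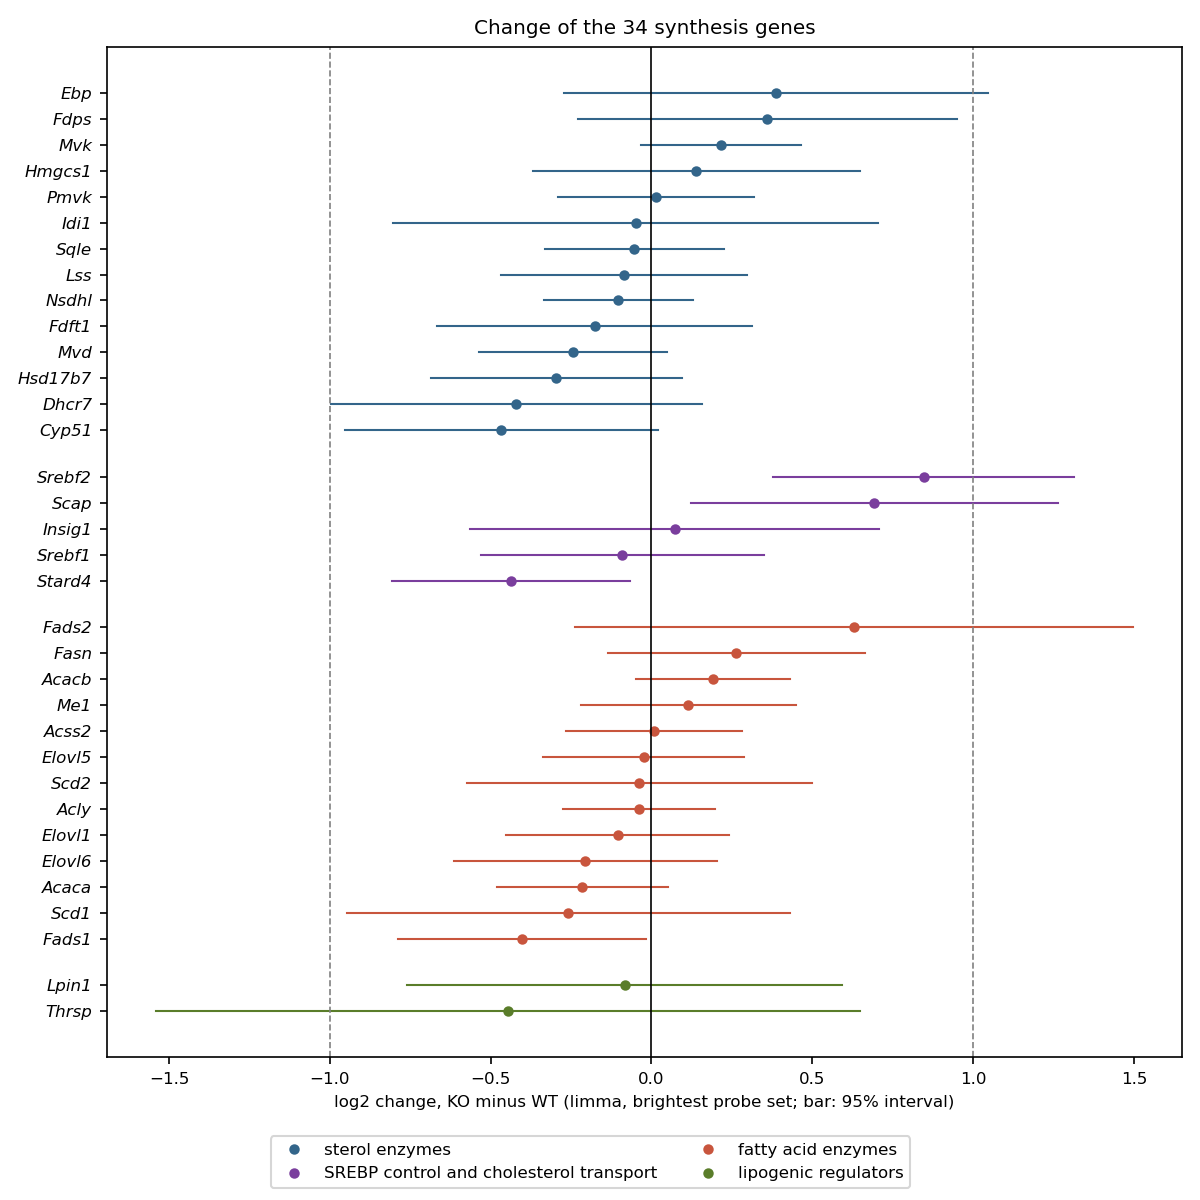
Log2 change, KO minus WT, of the 34 genes on their brightest probe set (points) with the 95% interval of the limma fit (bars), by group of genes; dashed lines mark a 2-fold change. Srebf2, at 0.85, and Scap, at 0.69, have intervals wholly above 0, and Stard4 and Fads1 intervals wholly below 0.

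The control genes of the pathway held the member nearest to a call, Srebf2. Its brightest probe set was at 8.38, 7.73 and 7.76 on WT1, WT2 and WT3 and at 8.87, 8.95 and 8.59 on KO5, KO6 and KO7. All KO arrays lay above all WT arrays, and WT1 lay nearest to them. The KO mean was 8.80 ± 0.19 (SD, n = 3) and the WT mean 7.96 ± 0.37 (SD, n = 3). This is a log2 change of 0.85, or 1.80-fold (standard error 0.20, 95% interval 0.38 to 1.31, limma adjusted p = 0.0916). The other Srebf2 probe set was at 7.64, 7.46 and 7.12 in WT and 8.05, 8.10 and 7.85 in KO, also with no overlap (log2 change 0.59, limma adjusted p = 0.113). Without WT1 the brightest probe set passed the limits of a call at 1.06, and it did so after centring on ribosomal protein genes, at 1.01. With the 3' minus 5' difference as a covariate the change was 0.22, and against WT1 as the only WT array 0.42. The covariate itself parts the groups, from 0.96 upwards in WT and up to 0.60 in KO. A fit with it therefore cannot separate RNA quality from genotype. Its changes, here and below, are not estimates corrected for RNA quality. The 2 WT arrays lowest for Srebf2, WT2 and WT3, were those with the largest 3' minus 5' differences; the part of RNA quality in the Srebf2 difference was not tested.

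Scap, which escorts both SREBP factors out of the endoplasmic reticulum, was at 9.34, 8.81 and 8.55 in WT and 9.48, 9.32 and 9.98 in KO. The groups overlapped, WT1 lying just above KO6, and the log2 change was 0.69 (standard error 0.24, 95% interval 0.12 to 1.26, limma adjusted p = 0.187). It was 0.084 with the 3' minus 5' covariate and 0.25 against WT1 alone. Insig1, the retention protein that is itself a target of SREBP, was at 8.36, 8.68 and 8.71 in WT and 9.08, 8.87 and 8.01 in KO. Its KO arrays spanned both ends of the range, and the log2 change was 0.07.

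Srebf1 was at 9.93, 10.35 and 10.29 in WT and 10.08, 9.81 and 10.41 in KO. The groups overlapped over most of their range, and the change was -0.09 (standard error 0.19, 95% interval -0.53 to 0.35, limma adjusted p = 0.839). Stard4, a cytosolic carrier of cholesterol, was at 6.97, 7.25 and 6.85 in WT and 6.72, 6.69 and 6.34 in KO. Every KO array lay below every WT array, by a small margin between WT3 and KO5 (log2 change -0.44, standard error 0.16, 95% interval -0.81 to -0.07, limma adjusted p = 0.196). Stard4 has 3 probe sets, and they did not move as one. A dimmer probe set was at 6.64, 8.19 and 6.79 in WT and 6.37, 5.99 and 5.46 in KO, a log2 change of -1.27 (limma adjusted p = 0.168). WT2 stood well above the other arrays on it, and it passed the limits of a call without WT1, at -1.55, and with array weights, at -1.53, but was at -0.08 with the 3' minus 5' covariate. The dimmest Stard4 probe set was at 0.27.

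**Figure D2:**
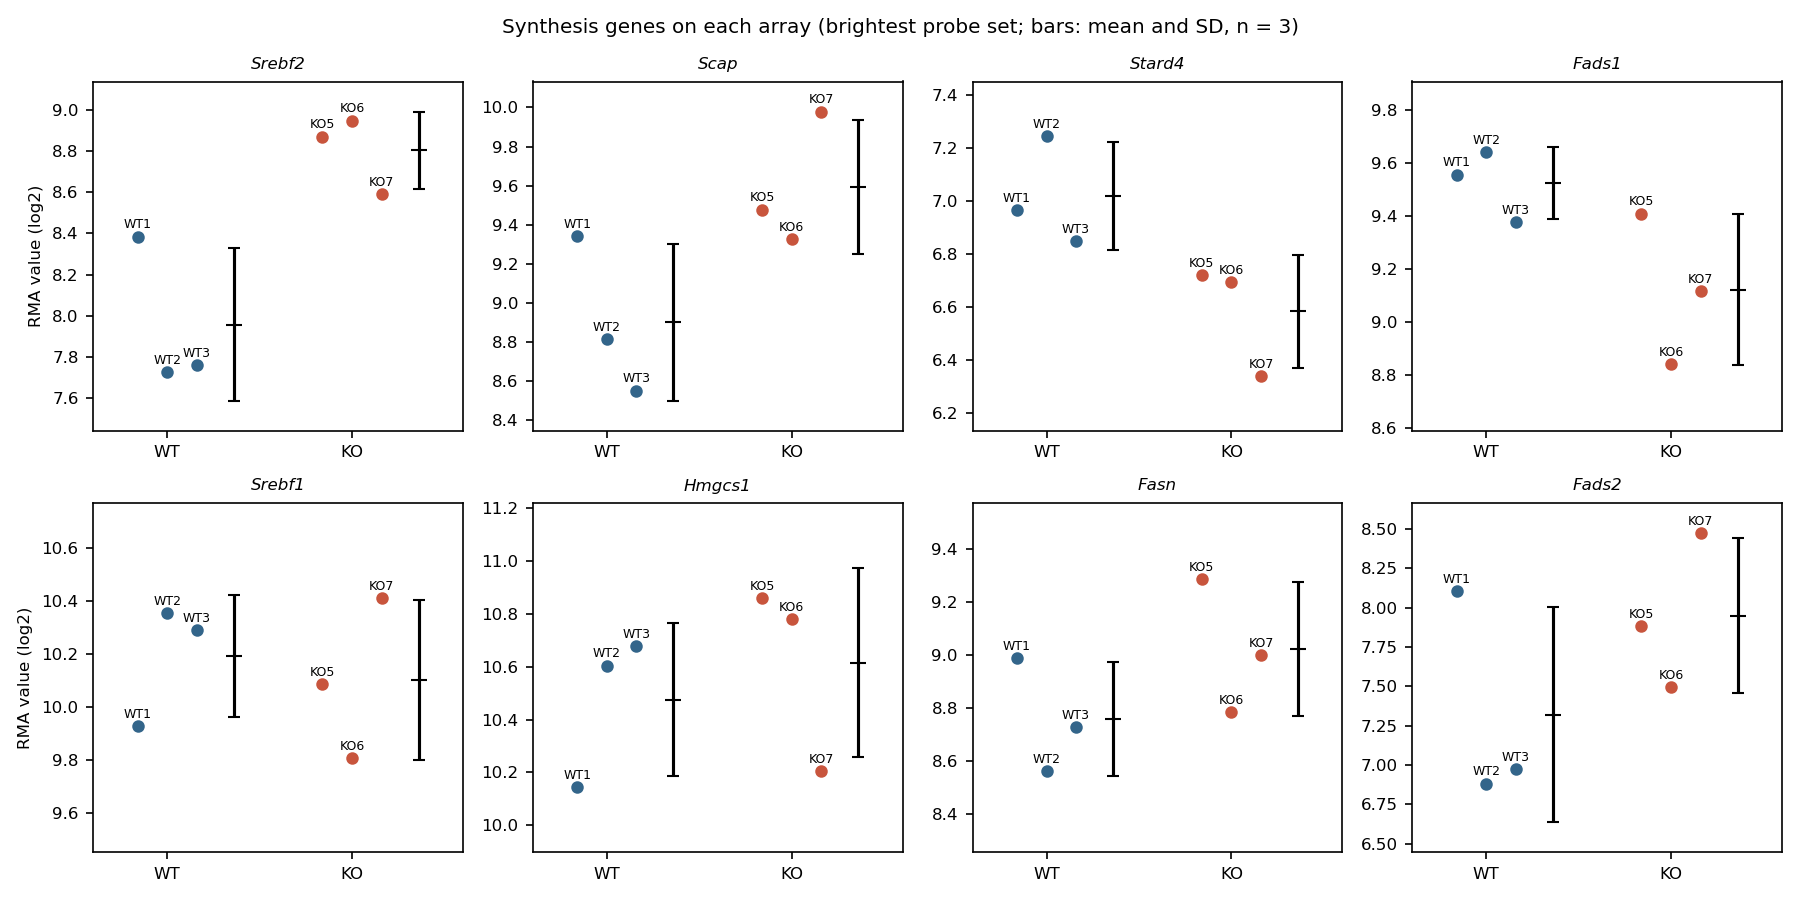
RMA value (log2) of 8 of the genes on each array, brightest probe set; each point is an array, and each bar spans the SD around the mean of 3 mice. Srebf2 and Stard4 keep the groups apart, while Hmgcs1 has its lowest values on WT1, at 10.14, and KO7, at 10.21.

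The 14 sterol enzymes did not differ between the groups beyond the limits of a call, and 13 of them had an interval within 2-fold in both directions. Their median log2 change was -0.07, with 5 higher and 9 lower. Hmgcs1, whose product starts the mevalonate route, was at 10.14, 10.60 and 10.68 in WT and 10.86, 10.78 and 10.21 in KO (log2 change 0.14, standard error 0.22, 95% interval -0.37 to 0.65, limma adjusted p = 0.777). Both groups held a low and 2 high arrays. Sqle, the squalene epoxidase, was at 9.19, 9.24 and 9.39 in WT and 9.32, 9.26 and 9.07 in KO. The whole range over the 6 arrays was narrow, and the change was -0.05 (standard error 0.12, 95% interval -0.33 to 0.22, limma adjusted p = 0.850).

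The enzyme with the lowest change was Cyp51, the lanosterol demethylase, at 7.97, 8.36 and 8.55 in WT and 7.98, 8.04 and 7.46 in KO. WT1 lay among the KO arrays (log2 change -0.47, standard error 0.21, 95% interval -0.95 to 0.02, limma adjusted p = 0.276). Its other probe sets were at -0.58 and -0.63, so all 3 were lower and none was called. The enzyme with the highest change was Ebp, a sterol isomerase, at 9.82, 9.22 and 10.45 in WT and 10.30, 10.22 and 10.13 in KO. The WT arrays lay on both sides of the KO arrays, and the change was 0.39 (standard error 0.28, 95% interval -0.27 to 1.05, limma adjusted p = 0.500). Of the others, Fdps, the farnesyl diphosphate synthase, was at 0.36, the mevalonate kinase Mvk at 0.22 and the phosphomevalonate kinase Pmvk at 0.01. Idi1, the isopentenyl diphosphate isomerase, was at -0.05, the lanosterol synthase Lss at -0.09 and Nsdhl, which acts in removal of the C4 methyl groups, at -0.10. The squalene synthase Fdft1 was at -0.18, Mvd, the mevalonate diphosphate decarboxylase, at -0.24, Hsd17b7, a sterol ketone reductase, at -0.30 and Dhcr7, which makes cholesterol from its last precursor, at -0.42.

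Many, not all, of the sterol enzymes shared an order of arrays within the groups. WT1 was the lowest WT array for 10 of the 14, against 42% of all genes. KO7 was the lowest KO array for 12, against 28.6% of all genes. Both held for 9 enzymes, 64.3%, namely Hmgcs1, Mvk, Pmvk, Idi1, Fdps, Sqle, Lss, Cyp51 and Hsd17b7, where 12.4% of all genes showed it, and for 1 of the 13 fatty acid enzymes, 7.69%. The lists of other genes, described below, hold 6 measured sterol enzymes, and both held for 2 of these 6, 33.3%. This order was noticed after the values were seen and is given as a description. Idi1 showed it most widely, at 8.26, 8.96 and 9.18 in WT and 9.14, 8.98 and 8.14 in KO. WT1 and KO7 lay close to each other and well below the other arrays. Insig1, above, has the same low arrays. The median over the 14 enzymes of the deviation from each gene's mean was -0.16 on WT1, 0.03 on WT2 and 0.14 on WT3, and 0.07 on KO5, 0.06 on KO6 and -0.17 on KO7. Over all genes the same medians lay between -0.06 and 0.04. WT1 also had the smallest mean 3' minus 5' difference of the WT arrays, 0.96 against 1.80 and 2.13. KO7 had the smallest in KO, 0.543 against 0.553 and 0.597, but the KO values lay close together. For Gapdh alone KO5 was the lowest KO array, at 0.40 against 0.46 on KO7. The order is shared by 4 of 10 basal and 4 of 9 fibroblast markers and by 2 of 8 markers of milk-producing alveolar cells, Lalba and Btn1a1. For that list the median deviation was -0.10, -0.24 and 0.85 on WT1, WT2 and WT3 and 0.61, -0.25 and -0.92 on KO5, KO6 and KO7. Of these 8 markers, 3 were higher and 5 lower in KO, and none was called. Their log2 changes ran from -2.38 for Glycam1 to 0.29 for Wap, with the milk casein gene Csn2 at -2.21 (limma adjusted p = 0.234). Csn2 did not show the order, as WT2, at 8.26, and KO6, at 6.30, were its lowest arrays. The part of RNA quality and of these cell types in the order was not tested.

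**Figure D3:**
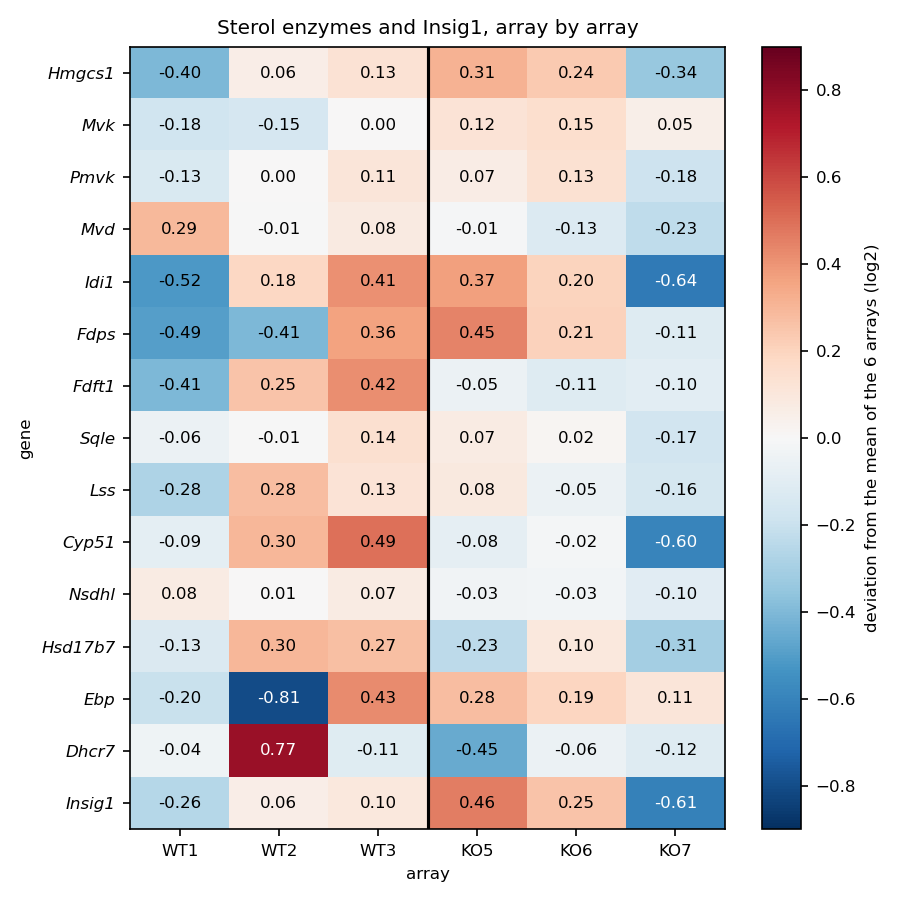
Deviation of each sterol enzyme and of Insig1 from its own mean over the 6 arrays (log2, brightest probe set), 1 column per array, WT left of the line and KO right of it. Idi1 lies at -0.52 on WT1 and -0.64 on KO7, and above its mean on the other arrays.

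The 13 fatty acid enzymes had a median log2 change of -0.04, with 5 higher and 8 lower, and 12 had an interval within 2-fold in both directions. Fasn, the fatty acid synthase, was at 8.99, 8.56 and 8.73 in WT and 9.29, 8.78 and 9.00 in KO (log2 change 0.26, standard error 0.17, 95% interval -0.13 to 0.66, limma adjusted p = 0.447). WT1 lay between the KO arrays. Acaca, the acetyl-CoA carboxylase that commits carbon to this route, was at 8.29, 8.32 and 8.21 in WT and 8.19, 7.92 and 8.06 in KO. The groups did not overlap, though WT3 and KO5 almost met, and the change was -0.22 (standard error 0.11, 95% interval -0.48 to 0.05, limma adjusted p = 0.353). Its mitochondrial counterpart Acacb was at 0.19, also with no overlap.

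Scd1, the stearoyl-CoA desaturase, was at 11.86, 10.98 and 10.59 in WT and 10.95, 10.77 and 10.93 in KO. WT1 stood above the other arrays, which overlapped (log2 change -0.26, standard error 0.30, 95% interval -0.95 to 0.43, limma adjusted p = 0.686). The desaturases of polyunsaturated fatty acids gave both ends of the range of these enzymes. Fads1, the delta-5 desaturase, was at 9.56, 9.64 and 9.38 in WT and 9.41, 8.84 and 9.12 in KO. KO5 lay just above WT3, and the change was -0.40 (standard error 0.16, 95% interval -0.79 to -0.02, limma adjusted p = 0.241). With the 3' minus 5' covariate the change was -0.41, while the other Fads1 probe set was at 0.06.

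Fads2, the delta-6 desaturase, was at 8.11, 6.88 and 6.97 in WT and 7.88, 7.49 and 8.47 in KO. WT1 lay among the KO arrays and the other WT arrays below all of them, and the change was 0.63 (standard error 0.37, 95% interval -0.24 to 1.50, limma adjusted p = 0.405). Without WT1 it passed the limits of a call at 1.02, with the 3' minus 5' covariate it was at -0.59 and against WT1 alone at -0.16. The other Fads2 probe sets were at 0.01 and -0.32. The rest of the fatty acid enzymes lay close to 0 on their brightest probe sets. Me1, the malic enzyme that supplies NADPH, was at 0.11, the acetyl-CoA synthetase Acss2 at 0.01, the elongase Elovl5 at -0.02, the desaturase Scd2 at -0.04, the citrate lyase Acly at -0.04, the elongase Elovl1 at -0.11 and the elongase Elovl6 at -0.21.

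Of the 2 lipogenic regulators, Thrsp had the largest standard error of the 34 genes. Thrsp, known as Spot 14 and tied to lipogenesis in liver, fat and the lactating gland, was at 7.01, 8.20 and 8.96 in WT and 7.75, 7.12 and 7.96 in KO. The WT arrays lay on both sides of the KO arrays (log2 change -0.45, standard error 0.47, 95% interval -1.54 to 0.65, limma adjusted p = 0.656). The adipocyte gene Adipoq had the same lowest and highest WT arrays, at 5.67, 7.49 and 9.00 on WT1, WT2 and WT3, with 6.84, 6.19 and 7.15 in KO. Of 18 adipocyte markers, 15 were measured and none was called on its brightest probe set, 11 being higher and 4 lower in KO. Fabp4, a fatty acid binding protein of adipocytes, lay between 14.02 and 14.14 in WT and between 14.24 and 14.30 in KO on its brightest probe set. On dimmer probe sets 2 of these genes were called higher. Fabp4 rose on its 2 dimmest, with log2 changes of 1.18 and 2.65 (limma adjusted p = 0.109 and 0.0350), and on the latter it lay between 6.59 and 7.24 in WT and between 9.09 and 10.05 in KO. Aqp7, a glycerol channel of adipocytes that was singled out after its values were seen, rose on its dimmer probe set, with a log2 change of 2.22 (limma adjusted p = 0.0492). The list summed to 14.36 to 14.76 in WT and 14.72 to 14.87 in KO, on the log2 scale. Fabp4 made up most of that sum, and the 4 markers that were lower in KO, Adipoq, Retn, Lep and Slc2a4, hardly enter it. The part of adipocytes in the values of the lipogenic genes was not tested. Lpin1, a phosphatidate phosphatase and coactivator, was at 9.68, 9.67 and 9.35 in WT and 10.19, 9.04 and 9.23 in KO, with a change of -0.08 and KO arrays on both sides of the WT arrays.

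Probe sets of the same gene often differed. Of the 26 genes with several, 15 had probe sets of both signs and 11 of 1 sign. The 47 probe sets other than the brightest had a median change of 0.01, and an unadjusted p under 0.05 (limma) was reached by 7 that were higher and 2 that were lower. The share of all dimmer probe sets that did so was not computed, so this split is not a result about these genes. Calls over all probe sets also leaned higher, at 1.69% against 0.3% lower. The only call among all 81 probe sets of the 34 genes was on Elovl1, which elongates saturated and monounsaturated long chains, and 2.95% of all genes had a probe set called higher and 0.55% a probe set called lower. Elovl1 was at 10.58, 10.70 and 11.00 in WT and 10.71, 10.77 and 10.49 in KO on its brightest probe set, with a change of -0.11. On the called probe set, the third brightest of its 4, it was at 8.86, 7.21 and 7.81 in WT and 9.47, 9.54 and 9.12 in KO (log2 change 1.42, standard error 0.38, 2.68-fold, limma adjusted p = 0.113). The KO arrays lay close together and WT2 and WT3 far below them. The remaining Elovl1 probe sets were at -0.14 and -0.22. Calls on this probe set were lost without WT2, at 1.04, without WT3, at 1.35, without KO5, at 1.37, without KO6, at 1.34, and without KO7, at 1.55. With the 3' minus 5' covariate the change was -0.04, against WT1 alone 0.52, and without WT1 1.87.

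**Figure D4:**
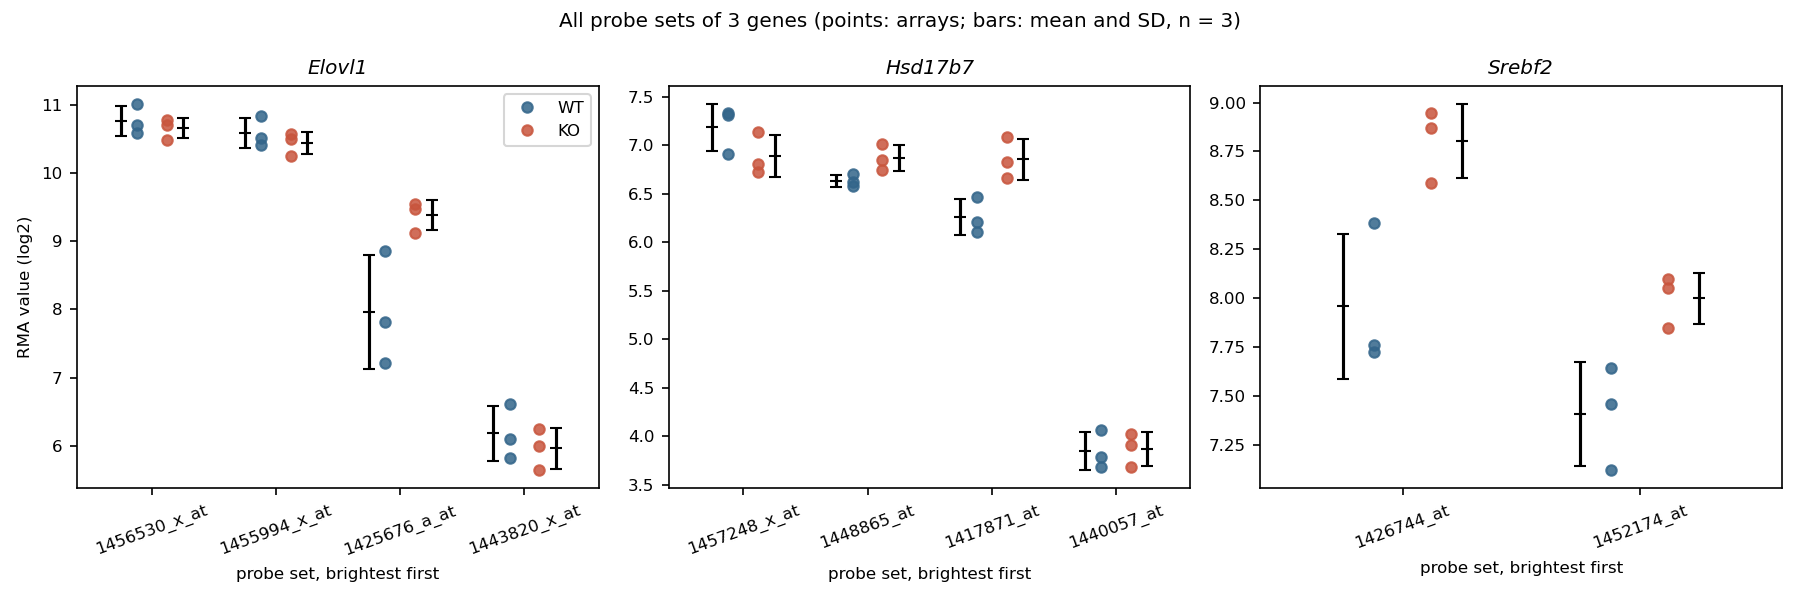
RMA value (log2) of every probe set of Elovl1, Hsd17b7 and Srebf2, brightest first; each point is an array, and each bar spans the SD around the mean of 3 mice. For Elovl1 the groups part only on the called probe set, and for Srebf2 they part on both.

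Hsd17b7 had probe sets of opposite direction. Its brightest was at -0.30, while the third brightest of its 4 was at 6.47, 6.11 and 6.21 in WT and 6.82, 7.08 and 6.66 in KO, with no overlap (log2 change 0.60, limma adjusted p = 0.105). The dimmest of 5 Hmgcs1 probe sets was at 4.21, 4.33 and 3.94 in WT and 5.07, 4.86 and 4.60 in KO (log2 change 0.68, limma adjusted p = 0.0923), and the brighter ones lay between 0.14 and 0.28 with the groups overlapping. The third brightest of 6 Acly probe sets was at 7.96, 6.56 and 6.60 in WT and 7.96, 7.71 and 8.04 in KO. WT1 was level with the KO arrays there (log2 change 0.87, limma adjusted p = 0.248), and without WT1 it passed the limits of a call at 1.33. With the covariate it was at -0.52. As with Fads2 and the Elovl1 probe set, WT2 and WT3 were its lowest arrays, and the part of RNA quality was not tested.

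**Figure D5:**
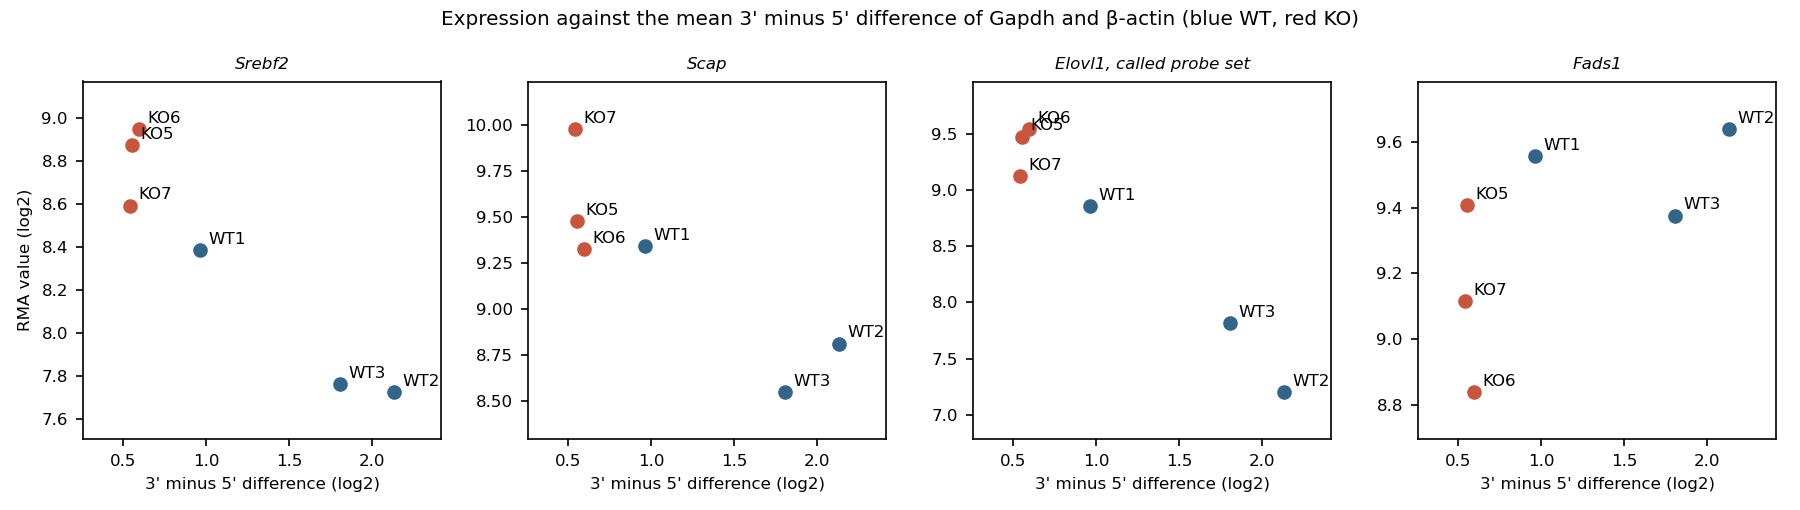
RMA value (log2) of Srebf2, Scap, the called Elovl1 probe set and Fads1 against the 3' minus 5' difference (log2, averaged over Gapdh and β-actin), 1 point per array. WT2 and WT3, at 2.13 and 1.80, have the lowest values in the first 3 panels, and in the panel of Fads1 WT2 has the highest.

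The other genes of these routes were read from a list of 58, of which 46 were measured. On the brightest probe set, 1 was called higher and 1 lower, where 0.517% and 0.462% of all genes were. An unadjusted p under 0.05 (limma) was reached by 4 that were higher and 5 that were lower, where 6.17% and 13% of all genes did so. The median log2 change was 0.02. Lipa, the lysosomal acid lipase that frees cholesterol from its esters, was at 9.16, 9.43 and 9.58 in WT and 8.56, 8.30 and 8.26 in KO. Every KO array lay well below every WT array, and Lipa fell by 1.01 on the log2 scale (standard error 0.15, limma adjusted p = 0.050). A dimmer Lipa probe set was at -0.95 and the dimmest at 0.22. All 10 leukocyte markers measured of 12 were lower in KO, none of them called, the list summing to 13.49, 12.99 and 11.56 in WT and 11.16, 12.43 and 11.54 in KO. On the dimmer probe set Lipa was at 7.92, 7.69 and 7.56 in WT, and KO6 lay above KO5, at 6.77, and KO7, at 6.56, so that WT1 and KO6 were highest in their groups as for the leukocyte sum, while on the brightest probe set WT1 was the lowest WT array. The part of leukocytes in the Lipa difference was not tested. The Lipa change lies at the 2-fold limit, and the call was lost without WT2, at -0.99, without WT3, at -0.92, without KO6, at -0.98, and without KO7, at -0.96. It was -0.71 with the 3' minus 5' covariate and -1.13 without WT1.

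Lpin3, a phosphatidate phosphatase of glycerolipid synthesis, was at 5.03, 4.50 and 4.60 in WT and 5.79, 5.97 and 6.29 in KO. The groups lay well apart, and Lpin3 rose, with a log2 change of 1.30 (standard error 0.19, limma adjusted p = 0.050). It kept its direction with the covariate, at 0.81, and against WT1 alone, at 0.99, neither of them a call. Slc25a1, the carrier that brings citrate out of mitochondria for fatty acid synthesis, was at 8.14, 7.15 and 7.24 in WT and 8.17, 8.41 and 8.48 in KO. WT1 came just under KO5 (log2 change 0.84, limma adjusted p = 0.149), and the change was 1.15 and within the limits of a call without WT1, but -0.12 with the covariate. Ggps1, which makes geranylgeranyl diphosphate from the sterol route's farnesyl diphosphate, was at 7.84, 8.29 and 8.28 in WT and 7.29, 7.29 and 7.67 in KO. The groups did not overlap (log2 change -0.72, limma adjusted p = 0.0921), but its 4 probe sets ran from -0.72 to 0.57.

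Among the remaining genes with the smallest p-values of their lists, Npc2, which carries cholesterol inside lysosomes, was at -0.46 (limma adjusted p = 0.136). Rnf139, a ubiquitin ligase of the endoplasmic reticulum, was at -0.35 (limma adjusted p = 0.136) and Hsd17b12, a reductase of fatty acid elongation, at -0.38 (limma adjusted p = 0.165). These 3, taken for their small p-values, kept the groups apart, with KO lower. Of all 46 measured genes of the lists 7 did so, where 16.1% of all genes did. The sterol enzyme genes Sc5d, at -0.17, and Lbr, at -0.15, overlapped between the groups.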

How the data were processed

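Expression had been measured in mammary epithelial organoids of 3 WT and 3 BK5 Wwox KO mice, 1 Affymetrix array each. The deposited log2 values are the output of RMA, for which no version is given in the sources used here, and the methods name simpleaffy and limma. RMA subtracts background, brings all arrays to a common distribution and summarises each probe set, so that an overall shift between the groups is removed. Nothing was normalized again. The table holds 45101 probe sets, and its 64 Affymetrix controls did not enter the tests. Genes were named through the 34945 probe sets with exactly 1 symbol, not through the 932 with several, and 9160 have no symbol. KO was compared with WT by lmFit and eBayes in limma 3.58.1 (R 4.3.3), with no covariate. The limits of a call are those of the study's methods. In 3 simulations of this comparison on 45037 probe sets, 270 of 300 log2 changes of 1.2 and 294 of 300 log2 changes of 2 were recovered, 1 of the smaller changes was called with the wrong sign, and 42 to 51 unchanged probe sets were called in each. The simulated noise was independent between probe sets, with no group difference in RNA quality or cell make-up. These counts therefore do not give the rate of false calls in the real arrays.

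The 34 genes, the other lists and the alternatives were chosen with earlier results of these data known. All 6 arrays are given for genes called on any probe set or at an unadjusted p under 0.05, for the largest changes of each gene group and for 7 genes named by their role (Srebf1, Srebf2, Hmgcs1, Sqle, Fasn, Acaca and Scd1). Other genes of the routes are named where called or among the 3 smallest p-values of their list. Insig1, Idi1, Lpin1, Aqp7, the milk markers, the dimmer probe sets and the genes of the closing observations were singled out after their values were seen. Alternatives were cyclic loess, centring on ribosomal protein genes, a floor of 6 on the mean log2 value, a robust prior with an intensity trend, array weights, the replicate number as a block, the 3' minus 5' difference as a covariate, unmoderated variances, other limits, other uses of probe sets and each array left out. WT1 as the only WT array was added after seeing the data, and the lone array is then assumed to vary like the KO arrays. Each mouse gave 1 array, and their number limits the precision. Figures were drawn with matplotlib 3.10.9 under Python 3.11.15.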

Additional observations from a re-analysis of the deposited data

How the results depend on the processing

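On the brightest probe set, 0 synthesis genes were called higher and 0 lower. With no fold limit, the unadjusted p was under 0.05 (limma) for 2 that were higher and 2 that were lower. The count called higher was 1 after ribosomal protein centring (Srebf2), 1 where any probe set of a gene counted (Elovl1), and between 0 and 2 with arrays left out, the 2 being Srebf2 and Fads2 without WT1. The count called lower was 0 with each array left out. Cyclic loess, the filter, the trend and robust prior, array weights, the covariate, unmoderated variances, the adjusted p, the mean of all probe sets and WT1 alone gave 0 in both directions. The median log2 change of the genes, -0.05, was 0.12 after ribosomal protein centring, which took the median of all genes to 0.10. It was 0.077 with the 3' minus 5' covariate, 0.032 against WT1 alone, and between -0.12 and 0.00 with arrays left out.

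Over all probe sets, 894 were called, 84.9% of them higher. The count was 316 with the covariate, 299 with unmoderated variances, 100 at an adjusted p under 0.05 and 8686 at an unadjusted p under 0.05 with no fold limit. It lay between 566, without WT2, and 1634, without WT1, with arrays left out. The count at an adjusted p under 0.05 was 3623 without WT1, 0 without WT2 (limma, with 5923 at an unadjusted p under 0.05), 50 without WT3 and 1 without any single KO array. The share of calls that were higher was 95.1% after ribosomal protein centring, 43.4% with the covariate, 42.5% against WT1 alone and 68.1% without WT3. The called Elovl1 probe set went to -0.038 with the covariate. The cause of these shifts was not tested, and the covariate fit cannot separate RNA quality from genotype, as its values do not overlap between the groups. The synthesis genes gave 509 values under the alternatives, of which 64, in 21 genes, changed sign, none of them from a called value.

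Replicate numbers of the titles were checked for pairing. The correlation of deviations was -0.16 for WT1 and KO5, 0.16 for WT2 and KO6 and 0.0994 for WT3 and KO7. Not every pair was over 0.1, so the numbers were not taken as pairs, and WT1 correlated best with KO6 and WT3 with KO5. Deviations from a mean of 3 arrays constrain one another, so this check cannot show that no arrays were paired. With the replicate block 922 probe sets and 0 synthesis genes were called, and the median of the genes stayed at -0.05.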

Other observations

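Lpin2 and Scarb1, other genes of the lipid routes chosen after their values were seen, were called on dimmer probe sets only, as Elovl1 was. Unlike those of Elovl1, all their probe sets were higher in KO. Lpin2, a phosphatidate phosphatase, had a change of 0.07 on its brightest probe set, and 2 dimmer ones were called higher, at 1.06 (the second brightest of 4) and 1.27 (the dimmest). On the former, the WT arrays were at 7.73, 7.66 and 7.40 and the KO arrays at 8.61, 8.50 and 8.87. Scarb1, the receptor that takes up cholesterol from high-density lipoprotein, was at 0.16 on its brightest probe set and at 1.18 on a called one, the dimmest of 3. That probe set was at 9.48, 8.29 and 8.24 in WT and 9.96, 9.92 and 9.68 in KO, with WT2 and WT3 lowest as for the Elovl1 probe set.

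Agpat2, an acyltransferase of triglyceride and phospholipid synthesis, spread more within the groups than between them. It was at 11.48, 10.79 and 9.13 on WT1, WT2 and WT3 and at 8.71, 8.93 and 11.39 on KO5, KO6 and KO7 (log2 change -0.79, standard error 0.82, limma adjusted p = 0.653). Each group held arrays near both ends of that range.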
